A study of Mus musculus with 6 samples.

Results

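The genes described here are 10 transcription factor genes that specify mesodermal lineages outside skeletal muscle, or pattern the limb and trunk: Gata2, Gata4 and Gata6 of the GATA zinc finger family, Tbx5, Tbx15, Tbx18 and Tbx20 of the T-box family, the basic helix-loop-helix (bHLH) factors Hand2 and Tcf21, and the NK2 homeobox factor Nkx2-5. They were taken by gene symbol from the 55536 genes counted, and were listed with the contrast between control and Hira-deficient cells already known, so their fold changes are given as a description and no p-value is printed for them. The stem cells of skeletal muscle, satellite cells, were profiled by RNA-seq from adult male C57BL/6J mice. Control cells (n = 3) carried Pax7CreErt2;Hira fl/+, labelled WT, and cKO cells (n = 3) carried Pax7CreErt2;Hira fl/fl. Hira encodes a chaperone that deposits histone H3.3 into chromatin, the Cre recombinase is driven by the satellite cell gene Pax7, and both groups received tamoxifen and a barium chloride injury of the tibialis anterior muscle. Control cells thus carry Cre and 1 floxed allele too, and recombination is limited to cells with Pax7 activity. The cells were sorted 5 days post-injury as CD34+ITGA7+CD45-TER119-SCA1- and were cultured for 48 h before RNA was taken. The study describes independent RNA samples and does not state whether each came from a separate mouse, so the spread between samples may be partly technical.

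GATA factors bind DNA through zinc fingers and act with FOG cofactors; GATA4 and GATA6 are core factors of heart and endoderm development, while GATA2 is best known in blood and endothelial precursors. HAND2, TBX5, TBX20 and NKX2-5 form with GATA4 the network that builds the embryonic heart, TBX18 and TCF21 mark epicardial and other mesothelial or stromal precursors, and TBX15 is a trunk and limb factor that is also active in glycolytic skeletal muscle. In muscle, such factors of sister mesodermal lineages are usually low or silent, with TBX15 as an exception.

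Between 47944477 and 63323577 reads per sample were assigned to genes, so that 3 counts, the floor used here for a single sample, stand for 0.0474 to 0.0626 CPM (counts scaled to a common library total). Hira, the targeted gene, had 375, 348 and 341 counts in the controls and 161, 293 and 272 counts in cKO, with a log2 fold change of -0.43 (SE 0.12, adjusted p = 0.0237, edgeR quasi-likelihood test with Benjamini-Hochberg adjustment). The highest cKO sample was lower than the lowest control, and without control replicate 1 the log2 fold change was -0.34 (adjusted p = 0.104). Hira overlaps another annotated gene on its own strand, which makes its counts uncertain. By other measures, RT-qPCR and immunostaining of cKO satellite cells, the paper reports a strong fall in Hira mRNA and no detectable HIRA protein. In the same test 15.8% of the 22404 genes tested were called at an adjusted p under 0.05, 9.38% as upregulated and 6.46% as downregulated in cKO.

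Of the 10 genes, 3 had at least 533 counts in every sample (Tbx15, Gata2 and Tbx18), and 5 had at most 51 counts in any sample (Hand2, Gata6, Tbx20, Gata4 and Nkx2-5). Tbx5 and Tcf21 stood at or under the floor in all 6 samples. Enough counts for the test were found for 6 of them. Of these 6, 4 were called upregulated in cKO (Hand2, Tbx20, Gata6 and Tbx18), beside 9.38% of all genes tested. Hand2 entered the test only through its cKO counts. Tbx20 needed its cKO counts as well, since control replicate 1 was too low to pass the filter on counts. None of the 6 was called downregulated by edgeR or by DESeq2, and 0 had a lower level at an unadjusted p under 0.05 in edgeR. The median log2 fold change of the 6 was 0.76, against -0.001 over all genes tested. Since the genes were chosen from this contrast, the share that was called supports nothing by itself. In CPM, all cKO samples lay above all control samples for the same 4 genes and for Nkx2-5, which was too low to be tested; among all genes tested 20.3% showed this order.

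**Figure D1:**
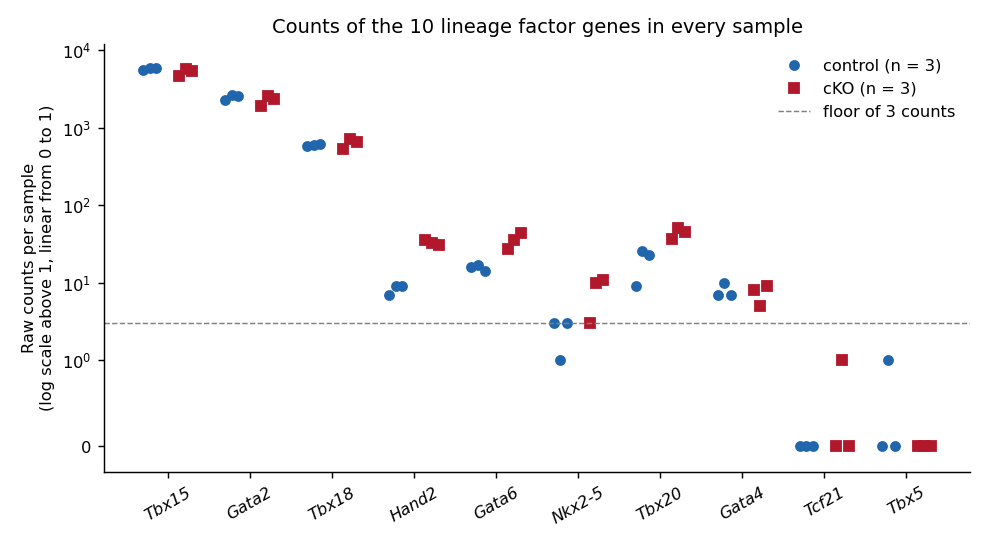
Raw counts of each gene (vertical axis, log scale above 1 and linear from 0 to 1) in the 3 control samples (circles) and the 3 cKO samples (squares), with genes in order of their level per length and a dashed line at the floor of 3 counts. Tbx15, Gata2 and Tbx18 have at least 533 counts in every sample, the cKO points of Hand2, Gata6 and Tbx20 lie above the control points, and Tbx5 and Tcf21 have at most 1 count in any sample.

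Tbx15 (mm10 chr3:99240381-99354259) was the most abundant of the 10. It had 5588, 5797 and 5904 counts in the controls and 4615, 5636 and 5426 in cKO. Scaled to the library totals this was 95.5 ± 3.68 CPM in control against 96.2 ± 0.952 CPM in cKO (SD, n = 3 each), and the groups overlapped. The log2 fold change was -0.01 (SE 0.04), and the ratio of the pooled counts, cKO over control, was 1.01 with a 95% interval of 0.987 to 1.03. This interval, like the others of pooled counts given here, is an exact binomial one that covers counting error only.

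Gata2 (chr6:88193891-88207032), the blood and endothelial precursor factor, was the only GATA gene among the 10 with more than 44 counts in any sample. The controls had 2251, 2607 and 2526 counts and the cKO samples 1924, 2549 and 2314. These correspond to 40.7 ± 0.779 and 41.6 ± 1.49 CPM (SD, n = 3 each). The groups overlapped, with a log2 fold change of 0.01 (SE 0.04) and a pooled ratio of 1.02 (0.989 to 1.06).

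Tbx18 (chr9:87702800-87731260), known from the epicardium, the sinus node and pericytes, was moderately expressed and slightly higher in cKO. The counts of 582, 603 and 608 in control stood against 533, 715 and 651 in cKO, which is 9.91 ± 0.385 and 11.6 ± 0.487 CPM (SD, n = 3 each). Every cKO sample exceeded every control sample once scaled to its library. The log2 fold change was 0.21 (SE 0.06), and the pooled ratio was 1.18 (1.1 to 1.26). This call was the least stable of the 4. It was lost in DESeq2 (log2 fold change 0.21) and with a replicate block (0.21). It was also lost when control replicate 2 (0.18), control replicate 3 (0.21), cKO replicate 2 (0.18) or cKO replicate 3 (0.20) was left out. A transcript on the opposite strand, D030062O11Rik, covers 20.6% of the exonic bases of Tbx18. It had 17, 9 and 12 counts in control against 16, 15 and 11 in cKO.

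Hand2 (chr8:57320983-57324633), a bHLH factor of the heart, limb bud and sympathetic neurons, showed the largest fold change of the 6 genes tested. It had 7, 9 and 9 counts in the controls and 36, 33 and 31 in cKO. The levels were 0.124, 0.142 and 0.147 CPM in control against 0.751, 0.558 and 0.555 CPM in cKO, so the lowest cKO sample was well above the highest control sample. The log2 fold change was 2.12 (SE 0.29). Pooled over samples, 25 control counts stood against 100 cKO counts, a ratio of 4.45 (2.85 to 7.2) after scaling to library totals. On the opposite strand, Hand2os1 covers 19.6% of the exonic bases of Hand2; it had 1, 0 and 4 counts in control against 3, 5 and 7 in cKO, a pooled ratio of 3.34 (1.15 to 11.7), and its groups overlapped. The strand setting of the counting is not given in the sources used here, so reads of the shared bases cannot be told apart.

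Gata6 (chr18:11052064-11085635), the GATA factor of the heart, endoderm and vascular smooth muscle, had 16, 17 and 14 counts in control against 27, 36 and 44 in cKO. Its level was 0.26 ± 0.0285 CPM in control against 0.653 ± 0.119 CPM in cKO (SD, n = 3 each). The groups did not overlap, and the log2 fold change was 1.31 (SE 0.26). The pooled counts were 47 and 107, with a ratio of 2.53 (1.78 to 3.65).

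Tbx20 (chr9:24718138-24774303), a T-box factor of the heart and of motor neurons, had 9, 26 and 23 counts in the controls and 37, 51 and 45 in cKO. Control replicate 1 was the lowest sample, at 0.159 CPM against 0.411 and 0.375 CPM in the other controls and 0.772 to 0.862 CPM in cKO. The groups did not overlap, with a log2 fold change of 1.32 (SE 0.27) and 58 against 133 pooled counts, a ratio of 2.55 (1.86 to 3.54). Without control replicate 1 the log2 fold change was 1.02, and Tbx20 was still called.

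Nkx2-5 (chr17:26838664-26845009), the cardiac homeobox factor, was barely detected. The controls had 3, 1 and 3 counts and the cKO samples 3, 10 and 11, so that 4 of the 6 samples were at or under the floor. All cKO samples were nevertheless above all controls in CPM (0.0158 to 0.0531 in control, 0.0626 to 0.197 in cKO), though cKO replicate 1 exceeded the highest control by less than the worth of 1 count. The 7 pooled control counts and 24 pooled cKO counts gave a ratio of 3.81 (1.59 to 10.5), and the gene was not tested.

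Gata4 (chr14:63198922-63271692), the partner of NKX2-5 and TBX5 at cardiac genes, had 7, 10 and 7 counts in control against 8, 5 and 9 in cKO, which pooled to 24 and 22 counts. The ratio was 1.02, and its interval of 0.545 to 1.9 leaves room for changes of nearly 2-fold either way at this depth. It overlaps the interval of Gata6 (1.78 to 3.65), and whether the 2 genes differ in response was not tested.

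Tbx5 (chr5:119832668-119885219), which specifies the forelimb and the heart, had 1 count in control replicate 2 and 0 in the other 5 samples. Tcf21 (chr10:22817281-22820174), a marker of fibroblast and epicardial precursors, had 1 count in cKO replicate 2 and 0 elsewhere. No fold change can be given for either gene. The upper 95% Poisson limits over each group of 3 samples were 0.0307 CPM in control and 0.0226 CPM in cKO for Tbx5, and 0.0204 and 0.0342 CPM for Tcf21.

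Levels were compared between genes as CPM per kb of merged exons. The mean over the 6 samples was 25.6 for Tbx15, 7.62 for Gata2 and 2.28 for Tbx18, and the ranges of these 3 genes did not overlap with each other or with those below. Hand2 followed at 0.161, a step of 14.2-fold below Tbx18. From Hand2 through Gata6 (0.0702), Nkx2-5 (0.053) and Tbx20 (0.047) to Gata4 (0.0345), each gene's samples overlapped in range with those of the next, and only the final step to Tcf21 (0.0012) was clear of overlap. On this scale Tbx15 exceeded 92.0% of the 19374 protein-coding genes with a count, Gata2 74.2% and Tbx18 54.1%. Hand2 exceeded 32.3% of them and Gata4 22.2%, with Gata6, Nkx2-5 and Tbx20 in between. In cKO, the level per length of Hand2, Gata6 and Tbx20 thus remained more than an order of magnitude below that of Gata2.

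**Figure D2:**
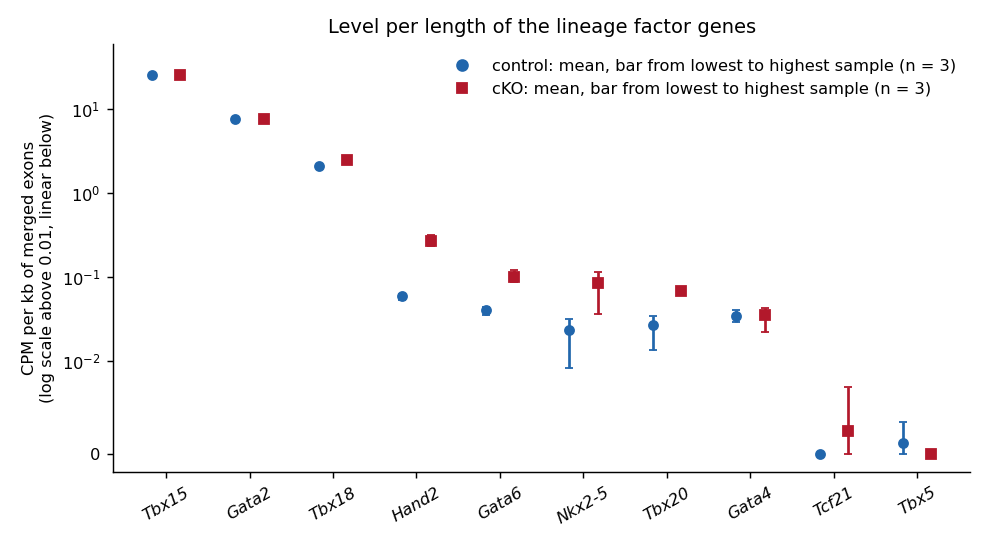
CPM per kb of merged exons (vertical axis, log scale above 0.01 and linear below) for each gene in control (circles) and cKO (squares); markers are means of 3 samples and bars run from the lowest to the highest sample. The cKO means of Hand2, Gata6, Nkx2-5 and Tbx20 lie above the control means but far below Tbx15 (25.6 over all samples), Gata2 (7.62) and Tbx18 (2.28).

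The 250 bases before the start of the genes were read from RefSeq (GRCm38.p6). Windows are reported here for 6 of the 10 genes (Gata2, Hand2, Tbx18, Tbx20, Tcf21 and Nkx2-5). The absence of the other genes from this account does not mean that they have no window. Sequences are shown for the upregulated genes among these 6. Gata6, which was also called upregulated, is not covered by the motif and CG counts below. Capitals mark matches on either strand to 4 short motifs: GATAA of GATA factors, the E-box CANNTG of bHLH factors, GGTGTGA of T-box factors and AAGTG of NK2 factors. The windows are chr8:57320733-57320982 (plus strand) for Hand2, chr9:24774304-24774553 (minus strand) for Tbx20 and chr9:87731261-87731510 (minus strand) for Tbx18.
Hand2: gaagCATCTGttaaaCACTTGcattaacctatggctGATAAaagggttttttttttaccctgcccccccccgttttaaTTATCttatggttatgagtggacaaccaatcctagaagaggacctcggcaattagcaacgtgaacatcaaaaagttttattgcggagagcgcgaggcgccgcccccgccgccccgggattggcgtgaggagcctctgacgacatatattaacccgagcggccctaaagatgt
Tbx20: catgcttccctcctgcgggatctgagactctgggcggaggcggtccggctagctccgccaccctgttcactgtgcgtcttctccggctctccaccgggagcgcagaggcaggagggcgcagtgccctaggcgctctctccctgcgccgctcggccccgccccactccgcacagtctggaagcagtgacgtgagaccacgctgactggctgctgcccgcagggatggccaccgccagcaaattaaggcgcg
Tbx18: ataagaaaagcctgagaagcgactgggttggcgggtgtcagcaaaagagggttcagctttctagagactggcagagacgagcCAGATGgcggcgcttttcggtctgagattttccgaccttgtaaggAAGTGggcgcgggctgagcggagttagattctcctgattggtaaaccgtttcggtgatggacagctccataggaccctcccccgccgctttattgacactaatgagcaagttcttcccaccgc
The Hand2 window held 2 GATAA matches, 214 and 172 bases before the start, and 2 E-boxes at 246 and 235 bases, the second of which overlaps an AAGTG match. The Tbx18 window held 1 E-box at 168 bases and 1 AAGTG match at 123 bases, and none of these letters was found in the Tbx20 window. Of the genes not shown, Gata2 had AAGTG at 214 bases, Tcf21 GATAA at 30 bases and Nkx2-5 an E-box at 113 bases. Among all 32851 windows of this length, 22.6% held GATAA, 66.2% an E-box, 3.33% GGTGTGA and 40.7% AAGTG. The windows shown were rich in CG dinucleotides, with 22 in Tbx20 and 15 each in Hand2 and Tbx18 against a median of 6, while GC content was 68.8%, 49.2% and 54.0% against a median of 52.4%. Gata2, which was not called, had 22 and 24 CG dinucleotides in its windows, Nkx2-5 had 8 and Tcf21 had 5. A match is a run of letters and not a measured binding site.

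The other members of these families were examined next, from lists written with earlier results of these data known. Among the other GATA genes and the FOG cofactors, 3 of 5 genes were tested. Zfpm1, which encodes the GATA cofactor FOG1, rose from 9.13 ± 0.729 to 12.4 ± 0.414 CPM (SD, n = 3 each; log2 fold change 0.42, SE 0.07, adjusted p = 0.000432, edgeR). Gata3 (-0.09, SE 0.08) and Zfpm2 (0.01, SE 0.09) were not called. Over the whole GATA family of 6 genes, 3 were tested and only Gata6 was called.

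Among 9 bHLH genes related to Hand2 and Tcf21, 6 were tested, 2 rose and 1 fell, with a median log2 fold change of 0.04. Twist1, a mesenchymal factor that opposes myogenic differentiation, had 142, 150 and 125 counts in control against 282, 363 and 337 in cKO. It rose by 1.36 on the log2 scale (SE 0.09, adjusted p = 7.41e-08, edgeR). Its paralog Twist2 had 14, 20 and 18 counts against 27, 42 and 39 (log2 fold change 1.18, SE 0.24, adjusted p = 0.00329, edgeR). Tcf23 fell, with 35, 48 and 40 counts against 19, 16 and 27. Its log2 fold change was -0.85 (SE 0.25, adjusted p = 0.0307, edgeR). This call was lost in DESeq2, with a replicate block (-0.856) and without control replicate 1 (-0.91), 2 (-0.76) or 3 (-0.88) or cKO replicate 2 (-0.64). The tendon factor Scx was the most abundant, at 75.9 ± 1.3 and 73.2 ± 5.27 CPM (SD, n = 3 each), and was not called; it lies within Bop1 on the other strand. Hand1, the sister gene of Hand2, was too low to be tested.

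Among 13 other T-box genes, 8 were tested, 4 rose and 1 fell, with a median of 0.20. Tbx2 rose from 4.38 ± 0.167 to 6.94 ± 0.479 CPM (SD, n = 3 each; log2 fold change 0.64, adjusted p = 3.21e-05, edgeR) and Tbx3 from 10.6 ± 0.295 to 14.5 ± 1.57 CPM (0.43, adjusted p = 0.000447, edgeR). These closely related repressors act in the heart and limb, among other organs. Eomes rose from 0.197 ± 0.0492 to 0.403 ± 0.101 CPM (SD, n = 3 each; log2 fold change 0.995, adjusted p = 0.045, edgeR), and this call was lost in DESeq2 and when any single control replicate (0.87 to 1.22), cKO replicate 1 (1.005) or cKO replicate 2 (0.78) was left out. The T-box and MAX-binding protein gene Mga, the most abundant, fell from 168 ± 4.35 to 154 ± 1.56 CPM (SD, n = 3 each; -0.15, adjusted p = 0.00393, edgeR). DESeq2 called 2 of the 13 upregulated. Eomes needed its cKO counts to enter the test, since control replicate 1 was too low to pass the filter on counts. Its call was also lost with a replicate block (0.989). Over the whole family of 17 T-box genes, 11 were tested, 6 were called upregulated and 1 downregulated, beside 9.38% and 6.46% of all genes tested. The 6 include Tbx18 and Tbx20, which were listed with this contrast known. In DESeq2 the calls of Tbx18, Tbx4 and Eomes were lost. None of 6 other NK2 genes could be tested, and 4 of them were at or under the floor in all samples.

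Beside Tbx5, the forelimb factor, which stood at the floor, 2 hindlimb factors were measured. Tbx4, the hindlimb T-box factor, had 701, 775 and 858 counts in control against 727, 846 and 862 in cKO (log2 fold change 0.19, SE 0.06, adjusted p = 0.0494, edgeR). That call was lost in DESeq2, with DESeq2's scaling in edgeR (0.19) and without control replicate 1 (0.17) or 2 (0.16) or cKO replicate 1 (0.18) or 3 (0.16). Pitx1, the hindlimb homeobox factor, had 24, 24 and 11 counts against 38, 59 and 52 (1.45, SE 0.27, adjusted p = 0.00128, edgeR).

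**Figure D3:**
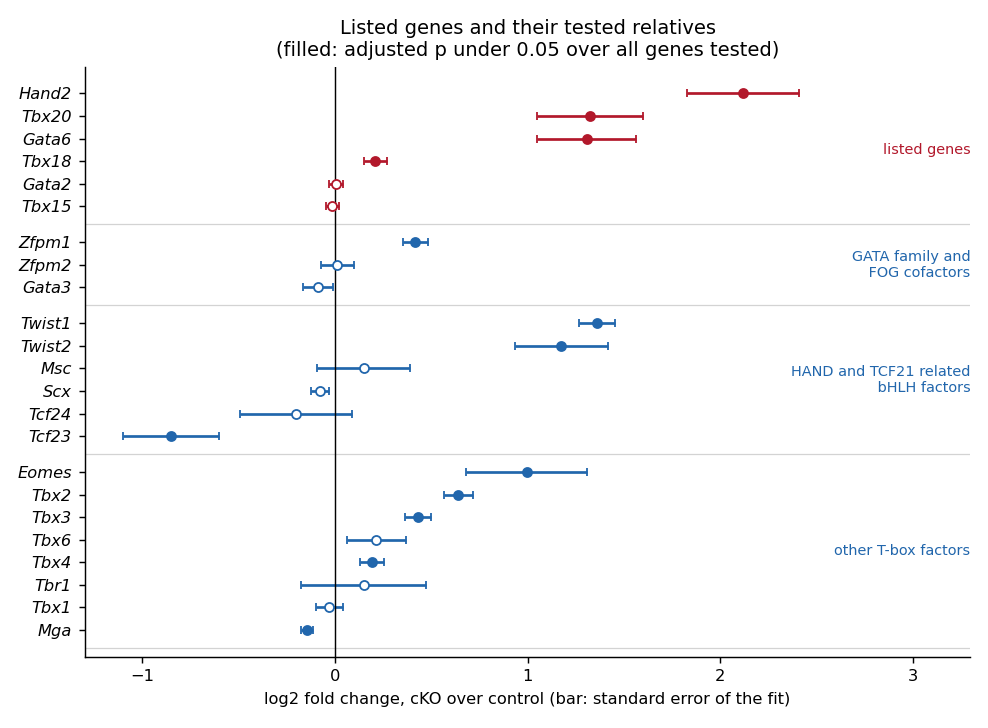
Log2 fold change of cKO over control (horizontal axis) with the standard error of the fit (bars) for the listed genes tested (top, 6 genes) and their tested relatives, from 3 samples a group; filled points have an adjusted p under 0.05 over all genes tested. Hand2 (2.12), Twist1 (1.36), Tbx20 (1.32), Gata6 (1.31) and Twist2 (1.18) have the largest fold changes of the genes plotted, which do not include Pitx1, while Gata2 (0.01) and Tbx15 (-0.01) sit at 0 with short bars.

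Genes that act beside these factors in the heart were examined as well. Of 15 cardiac co-regulators, 13 were tested, 5 fell and 0 rose (0 also at an unadjusted p under 0.05 in edgeR, and 0 in DESeq2), with a median of -0.06. Mef2c, a MADS-box factor of cardiac and skeletal muscle, fell from 564 ± 18.8 to 462 ± 19.1 CPM (SD, n = 3 each; log2 fold change -0.31, adjusted p = 3.07e-05, edgeR). Mef2a (-0.20), the Notch target Hey1 (-0.45) and Tead1 (-0.17) fell as well. Tead1 was not called without control replicate 1 (-0.13) or control replicate 3 (-0.19), with total counts only (-0.147) or with a replicate block (-0.173). The genes named are also expressed in skeletal muscle cells.

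Of 17 genes known as targets of cardiac factors, 12 were tested, 6 rose and 1 fell, with a median of 0.24. The heavy chain genes Myh6 (66.5 ± 1.38 to 97.5 ± 3.03 CPM, SD, n = 3 each; log2 fold change 0.53, adjusted p = 7.4e-08, edgeR) and Myh7 (0.50) rose, and as near-identical paralogs they may share reads. Myl2 (0.90) and the gap junction genes Gja5 (0.26) and Gja1 (0.17) also rose. Myl2 was not called without control replicate 1 (0.72). Actc1, at 2110 CPM in control and the most abundant, fell by 0.19 on the log2 scale, a call lost without control replicate 1 (-0.17), control replicate 2 (-0.19) or cKO replicate 3 (-0.18). The atrial and embryonic heart genes Nppa, Myl7 and Bmp10 were at or under the floor in all samples, and Nppa had 1 count in all.

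Among 8 partners of GATA2 in blood and endothelium, 7 were tested, 3 rose and 1 fell, with a median of 0.47. The ETS factors Fli1 (2.68 ± 0.343 to 5.7 ± 0.541 CPM, SD, n = 3 each; log2 fold change 1.07, adjusted p = 3.63e-06, edgeR) and Spi1 (1.22 ± 0.0454 to 2.54 ± 0.428 CPM; 1.03, adjusted p = 0.000133, edgeR) rose, as did the LIM factor Lmo2 (0.73). Spi1 is a defining factor of the myeloid lineage. Runx1 fell from 303 ± 6.94 to 282 ± 11.4 CPM (SD, n = 3 each; -0.13, adjusted p = 0.0145, edgeR), a call lost without control replicate 1 (-0.12) or 3 (-0.12). The Runx1 call was also lost with total counts only (-0.105). Gata2 itself, as given above, stayed within the spread of its replicates. Many of the genes named in these lists overlap others on the opposite strand, and Zfpm1 overlaps Gm20388 on its own strand.

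Markers of some cell types that could be carried through the sort rose with the same contrast, while those of others did not. The counts of each list stand beside 9.38% of all genes tested called upregulated and 6.46% called downregulated. All 11 macrophage markers rose, with a median log2 fold change of 1.06; their summed level was 122 to 127 CPM in the control samples and 260 to 305 CPM in cKO. Lyz2 stood at 80.4 ± 1.46 CPM in control and rose to 186 ± 16.9 CPM (SD, n = 3 each), C1qa by 1.12 on the log2 scale, and Ptprc, which encodes the sorted-out antigen CD45, by 0.96. Of 12 fibroblast markers 10 were tested and 6 rose, with a summed level of 588 to 615 CPM in control and 739 to 808 CPM in cKO. Pdgfra rose from 22.9 ± 1.31 to 51.4 ± 4.29 CPM (SD, n = 3 each; adjusted p = 2.67e-09, edgeR), with smaller fold changes for Col3a1 (0.21) and Gsn (0.17), and Tcf21, a fibroblast factor, was at the floor. The sort excluded SCA1+ cells, a gate that removes many fibroblasts; Ly6a, which encodes SCA1, measured 3.04 ± 0.166 CPM in control against 3.66 ± 0.241 CPM in cKO (SD, n = 3 each; 0.24, adjusted p = 0.115, edgeR) and was not called. Of 11 endothelial markers 5 rose, with summed levels of 22.4 to 24.5 and 32.9 to 39.2 CPM: Flt1 rose by 1.12 on the log2 scale and Cdh5 by 0.47, while Vwf (0.30, adjusted p = 0.0612, edgeR) was not called. The call of Cdh5 was lost without control replicate 1 (0.44), 2 (0.52) or 3 (0.45) or cKO replicate 2 (0.22), and DESeq2 called 3 of the 11 upregulated.

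Of 8 smooth muscle and pericyte markers 7 were tested, 5 rose and 2 fell, and the summed level was 3240 to 3290 CPM in control and 3490 to 3630 CPM in cKO, mostly from Acta2 (0.09) and Cspg4 (0.15). Myh11 rose from 28.1 ± 1.21 to 56.2 ± 4.65 CPM (SD, n = 3 each; log2 fold change 0.98, adjusted p = 5.89e-09, edgeR) and Rgs5 by 0.64 on the log2 scale, and both were called in all 13 alternative settings, while Notch3 (-0.28) and Abcc9 (-0.20) fell. Abcc9 was not called without control replicate 3 (-0.20). The calls of Acta2 and Cspg4 were lost when any single control replicate (0.09 to 0.10 and 0.13 to 0.17) or cKO replicate 3 (0.10 and 0.16) was left out, and that of Cspg4 also without cKO replicate 2 (0.08). Acta2 was also not called by a likelihood-ratio test (0.094) or with a replicate block (0.094), nor Cspg4 with DESeq2's scaling in edgeR (0.145). Of 8 mesothelial and epicardial markers 4 were tested and 2 rose, Krt19 (1.20) and Aldh1a2 (0.999), and the summed level was 11.6 to 12.2 CPM against 17.5 to 18.8 CPM. Of the 4 tested, 1 was lower at an unadjusted p under 0.05 in edgeR, and 0 were called downregulated by edgeR or DESeq2. Msln (0.04) was not called, the defining epicardial factor Wt1 had 5, 3 and 7 counts in control against 3, 5 and 2 in cKO, and Upk3b was at the floor. Of 6 cardiomyocyte markers 3 were tested and 2 rose, Myh6 and Myl2, with summed levels of 66.8 to 69.0 and 95.8 to 101 CPM, while Myl7 was at 0 and Nppa at the floor. Nearly all of the sum was Myh6 (mean 66.5 CPM in control and 97.5 CPM in cKO), which may share reads with Myh7. None of 3 Schwann cell markers tested (Sox10 0.34) was called by edgeR or DESeq2, though 2 of them were higher at an unadjusted p under 0.05; 0 of 3 tendon cell markers (Scx -0.08, Mkx -0.03) was called or passed an unadjusted p under 0.05. No mast cell marker could be tested (at most 0.0632 CPM summed). Of 8 satellite cell markers 7 were tested and 5 fell, with summed levels of 1820 to 1870 and 1720 to 1730 CPM; Myod1 fell by 0.16 on the log2 scale and Itga7 by 0.12. The call of Itga7 was lost when any single control replicate (-0.14 to -0.11), cKO replicate 2 (-0.09) or cKO replicate 3 (-0.13) was left out. It was also lost with total counts only (-0.097). The paper reports Cdh5 and Pdgfra as upregulated in a Hira-deficient myoblast line as well, and VE-Cadherin (from Cdh5) staining in cKO satellite cells. The part of these cell types in the rise of Hand2, Gata6, Tbx20 and Tbx18 was not tested. In bulk samples a larger number of such cells, more RNA per cell and expression by the myogenic cells themselves, as the paper proposes, cannot be told apart.

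**Figure D4:**
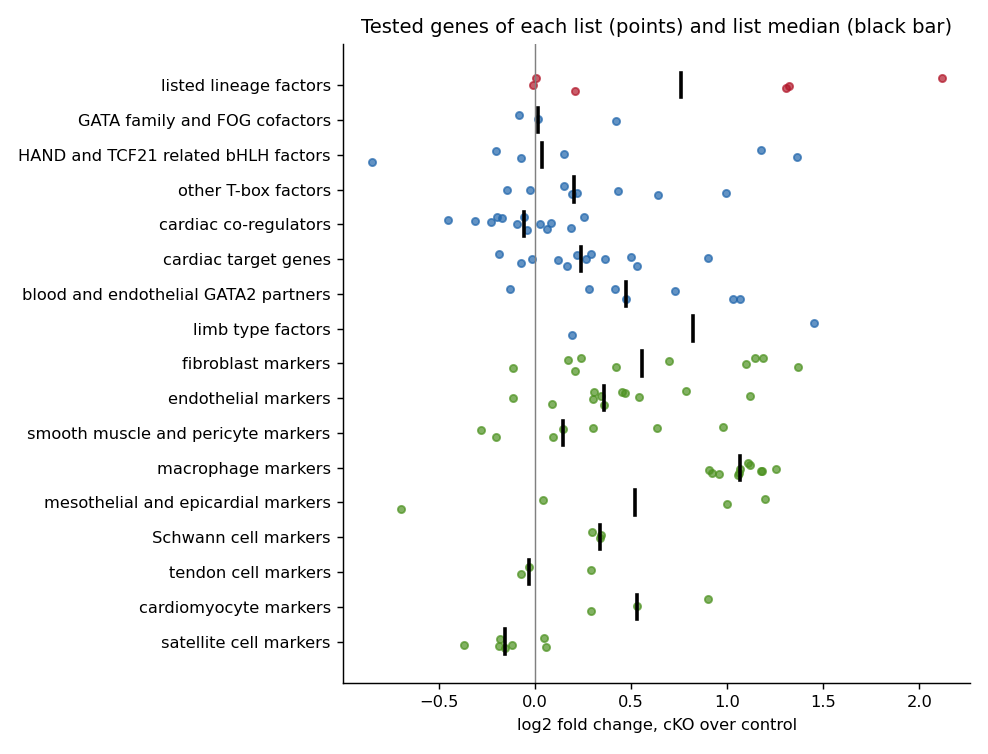
Log2 fold change of cKO over control (horizontal axis) for every tested gene (points) of each list, with the list median as a black bar: listed factors at the top, related genes in the middle and cell type markers below, from 3 samples a group. All 11 macrophage markers lie to the right of 0 (median 1.06). The 13 cardiac co-regulators have a median just below 0 (-0.06), with 5 called downregulated and 0 upregulated. The listed factors split into 3 genes near 0 to 0.21 and 3 above 1.

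The genes around the 10 loci were examined as a measure that the listing did not use. Within 250 kb of a start lay 112 other genes, of which 42 were tested, 4 were called upregulated and 3 downregulated, and their median log2 fold change was -0.004, against 9.38% upregulated, 6.46% downregulated and a median of -0.001 over all genes tested. Near Hand2, the noncoding RNA gene 5033428I22Rik, which starts 11.1 kb downstream on the same strand, had 7, 17 and 10 counts in control against 15, 26 and 27 in cKO (1.12, SE 0.33, adjusted p = 0.0319, edgeR). That call was lost in DESeq2 and without control replicate 1 (0.91) or 3 (1.03) or cKO replicate 2 (1.08) or 3 (0.99). The gene also entered the test only through its cKO counts, since control replicates 1 and 3 were too low to pass the filter on counts. Farther out, the chromatin genes Sap30 (-0.26, adjusted p = 0.000231) and Hmgb2 (-0.20, adjusted p = 0.012, edgeR) fell; Hmgb2 was not called without control replicate 2 (-0.19).

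Near Gata4, which was not tested, the cathepsin gene Ctsb rose by 0.30 on the log2 scale and Fam167a fell (-0.34). Tbx3, which rose, is the neighbour of Tbx5 at 162 kb, and the 2 T-box genes thus stood at 10.6 CPM and at the floor in control from adjoining loci. Near Nkx2-5 1 of 13 tested genes, Itpr3, was called (0.16, adjusted p = 0.0458, edgeR), a call lost in DESeq2 and when any single control replicate (0.11 to 0.19) or cKO replicate 2 (0.11) was left out. It was also lost with DESeq2's scaling in edgeR (0.157). No gene was called near Gata2 (7 tested), Tbx15 (4), Tcf21 (3), Gata6 (1) or Tbx18 (1), and none could be tested near Tbx20.

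**Figure D5:**
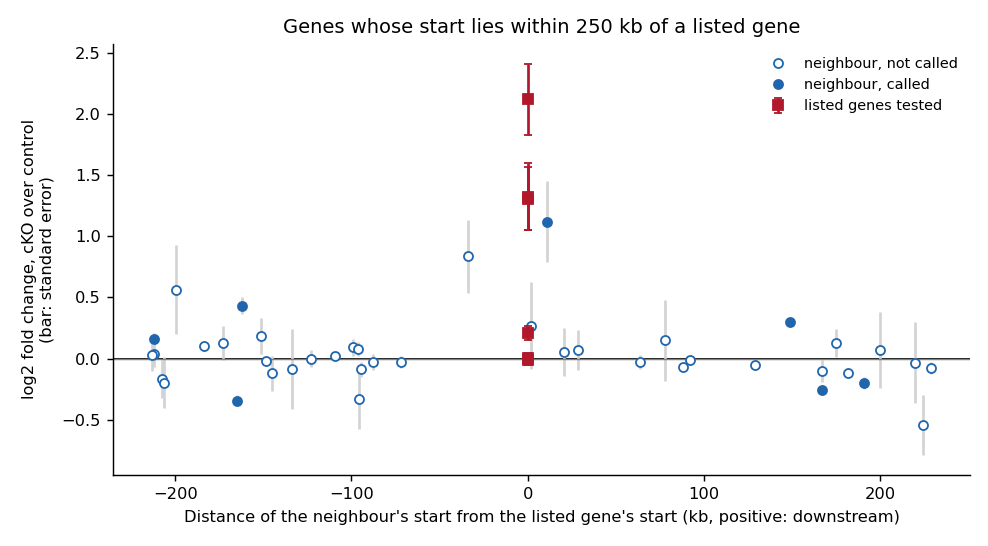
Log2 fold change of cKO over control with standard errors (vertical axis) against the distance in kb of a neighbour's start from the start of the listed gene (horizontal axis, positive values downstream), for the 42 neighbours tested (circles, filled where called) and the 6 listed genes tested (squares at 0). Most neighbours scatter around 0 (median -0.004), and the filled point nearest to a listed gene is 5033428I22Rik, 11.1 kb from Hand2 at 1.12.

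For the 4 genes with at least 10 counts in every sample, the protein-coding genes with the most similar profile were found as the smallest root mean square difference in centred log2 CPM over the 6 samples, among 12325 genes with a mean of at least 1 CPM. Gata6 was closest to Gjb2 (0.129), Fgf7 (0.13) and Slit2 (0.137). Tbx18 was closest to Micu3 (0.0163), Cyp4f16 (0.022) and Rassf1 (0.0228). For the 2 genes that were not called, the closest included Brwd3 (0.00909) and Chst2 (0.0114) for Gata2 and Mon1a, Nsun3 and Depdc1a for Tbx15 (0.0105 to 0.0131). With 6 samples in 2 groups, many genes follow such profiles, and the likeness is a description.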

How the data were processed

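RNA was measured in 6 samples, 3 control and 3 cKO, from 400 ng of total RNA depleted of ribosomal RNA, as stranded libraries read single-end at 75 bp. Alignment to mm10 was done by the authors with Bowtie2 2.3.4.2, so reads across exon junctions were not split, and featureCounts 1.6.3 gave the raw counts they deposited; the strand setting is not given in the sources used here. Their normalized counts and their comparison table (mean, log2 fold change with its error, test statistic and p-values, from DESeq2 2.11.40.6) were not used. Symbols, exon lengths and coordinates came from GENCODE M21.

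Genes were kept by filterByExpr, scaled by TMM and tested with edgeR 4.0.16 (quasi-likelihood, genotype only; Benjamini-Hochberg adjustment over 22404 genes; threshold 0.05) in R 4.3.3. The standard error is the absolute log2 fold change over the root of the F statistic. The test was checked on simulated counts. Replicates varied by 3.92% beyond counting error, which is the larger at the low counts of most genes described. No pair of samples agreed within sampling noise. Genes and lists were chosen with earlier results of these data known. Named were all 10 genes, related genes that were called, the most abundant gene of each related list, the 2 most abundant of each marker list with Wt1, Pdgfra, Cdh5 and Ptprc, called neighbours within 250 kb, and 3 most similar genes; related genes or markers outside this rule were named after their values were seen. A few genes that this rule selects are not reported here. Alternatives were DESeq2 1.42.0, a likelihood-ratio test, other scalings and filters, a replicate block and leaving out each sample. Python 3.11.15 made the summaries and plots.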

Additional observations from a re-analysis of the deposited data

How the results depend on the processing

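Hand2, Gata6 and Tbx20 were called upregulated under every alternative that could test them, with log2 fold changes of 1.97 to 2.19, 1.14 to 1.39 and 1.02 to 1.56 when a sample was left out. All settings reuse the same counts, for genes listed with this contrast known, so they give no independent support. The number of listed genes called upregulated (4) fell to 3 with DESeq2, and was 3 to 4 without a sample, Tbx18 (0.18 to 0.24) being the gene lost. A minimum of 10 counts in every sample gave 2, because Hand2 and Tbx20 were then not tested. None was downregulated in any setting. Tbx15 changed sign with total counts only (0.0114) and ranged from -0.0442 to 0.0108 without a sample, and Gata2 from -0.0201 to 0.0272; neither was called in any setting. Hira ranged from -0.52 to -0.29 without a sample. Over all genes, 2101 were called upregulated and 1448 downregulated, 2462 and 1057 with total counts only, and 1571 to 2214 and 917 to 1673 without a sample; the cause was not tested. Of 26 related genes called, 18 were called in every setting, as were 30 of 38 marker calls and 4 of 7 neighbours. With no filter, Gata4 (0.01, SE 0.51) and Nkx2-5 (1.83, SE 0.68) were fitted and not called.

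Replicate numbers did not pair the samples: same-numbered samples correlated at -0.015 to -0.004. With the replicate block, 3 listed genes were called upregulated (Tbx18 lost, at 0.21) and 0 downregulated, and over all genes 1901 and 1251; Hira was at -0.44. Depth limits Gata4 and Nkx2-5, and no fold change could be given for Tbx5 and Tcf21.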
